A study of Penicillium oxalicum with 72 samples.

Results

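XlnR, encoded by POX05324, is the xylanase activator of the filamentous fungus Penicillium oxalicum. It was picked by its identifier alone, with no measured value used, and is 1 of the 9821 genes listed in at least 1 library and 1 of the 8898 genes whose mean level was at least 1 FPKM (fragments mapped to a gene, scaled to the length of its transcript and to the total mapped in the library, so that levels of different genes can be set side by side). All 72 RNA-seq libraries list it. They came from strain ΔPoxKu70 (MuKu70 in the labels), a derivative of wild-type HP7-1 that lacks the PoxKu70 gene, so every group, controls included, carried this deletion. Mycelium grown on glucose was washed and moved to medium with Avicel (AV, a crystalline cellulose), wheat bran (WB), methylcellulose (MC), 2-hydroxyethyl cellulose (HEC), glucose (GLU) or no carbon source (NC), and harvested after 4, 12, 24 or 48 h, with 3 biological replicates in each of the 24 conditions.

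XlnR is a fungal transcription factor of the Zn2Cys6 (binuclear zinc cluster) family. In filamentous fungi the protein and its relatives, Xyr1 in Trichoderma reesei and XLR-1 in Neurospora crassa, bind the promoters of xylanase genes and, to a degree that differs between species, of cellulase genes, and switch them on when xylose or other inducers are present. The carbon catabolite repressor CreA acts in the opposite direction on many of the same genes while glucose lasts. For P. oxalicum itself, the study states from earlier work that XlnR acts negatively on cellulase production and positively on xylanase production. ClrB, the relative of CLR-2 of N. crassa, and ClrA, the relative of CLR-1, are cellulase activators of the same zinc cluster family. A transcript level is not a measure of how active such a protein is, because activators of this kind also respond to inducers after they are made.

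The libraries listed 9243 to 9568 genes each and their FPKM summed to 924393 to 1255914. The read depth behind each value is not carried by these files, so no counting interval was computed. No pair of libraries was identical, and 71 of 72 correlated best with a library of their own condition. The exception was AV at 12 h replicate 1, which was nearest to a library of HEC at 12 h (r = 0.9795 across genes). NC at 24 h replicate 3 carries a label that gives both 4 h and 24 h. It was kept at 24 h after its short name, and its mean correlation across genes was 0.9884 with the other NC libraries of 24 h and 0.8617 with those of 4 h. The 12 HEC libraries are described in words as methylcellulose and were also placed by their short names. The samples are labelled as mycelium. Of 9 genes known from spore formation and spore pigment, none was at 0 in all 3 libraries of any condition, and their summed level ran from 49.81 to 72.89 FPKM in WB at 4 h up to 1521 to 1683 FPKM in HEC at 48 h. It was also high at 48 h in AV (1297 to 1476 FPKM), MC (1060 to 1081 FPKM) and NC (1396 to 1647 FPKM), and it stayed between 115.6 and 173.8 FPKM in GLU.

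XlnR was a gene of middling abundance. Its level lay between 9.0 and 47.6 FPKM with a median of 24.2 FPKM, and it stood between the 33.1st and the 69.5th percentile of the genes listed in a library. The condition means spanned a ratio of 4.45, or 2.04 on the scale of log2(FPKM + 1), and 51.1% of tested genes had a smaller span (median over tested genes, 2.02). The span of XlnR was thus close to that of the median gene over the same conditions. Of its sum of squares over the 72 libraries on the log2 scale, time accounted for 41.4%, medium for 24.2%, the combination of medium and time for 22.4% and replicates for 12.1%.

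In NC, XlnR was at 12.45, 16.8 and 25.57 FPKM at 4 h, at 21.92, 21.26 and 16.02 FPKM at 12 h, at 25.14, 29.62 and 26.17 FPKM at 24 h and at 29.36, 31.26 and 30.84 FPKM at 48 h. The starved mycelium thus held XlnR transcript at a level that overlapped between 4 and 12 h and was higher at 48 h in every library than at either. In GLU it was at 9.56, 9.0 and 9.79 FPKM at 4 h, at 10.96, 10.46 and 10.62 FPKM at 12 h, at 24.15, 18.83 and 15.63 FPKM at 24 h and at 23.33, 23.51 and 24.29 FPKM at 48 h. All 6 early glucose libraries were below every NC library of the same time, and the later glucose libraries were above every earlier one.

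In AV, XlnR was at 17.21, 17.43 and 21.69 FPKM at 4 h, at 28.66, 19.08 and 10.36 FPKM at 12 h, at 46.92, 40.13 and 35.39 FPKM at 24 h and at 25.13, 28.91 and 25.42 FPKM at 48 h. The 24 h libraries lay above all others on Avicel, and the 3 libraries of 12 h were spread more widely than those of any other condition (coefficient of variation, 47.3%), with the highest of them the library that resembled HEC. In WB, XlnR was at 10.31, 9.21 and 13.49 FPKM at 4 h, at 34.29, 28.07 and 26.89 FPKM at 12 h, at 26.54, 27.01 and 28.71 FPKM at 24 h and at 36.61, 31.86 and 31.12 FPKM at 48 h. On wheat bran the step lay between 4 and 12 h, with no overlap between the 4 h libraries and any later one.

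In MC, XlnR was at 17.2, 14.33 and 18.54 FPKM at 4 h, at 26.0, 26.21 and 20.72 FPKM at 12 h, at 47.6, 33.85 and 38.56 FPKM at 24 h and at 41.81, 43.29 and 41.06 FPKM at 48 h. The MC libraries of 24 and 48 h overlapped with each other and lay above all earlier MC libraries. In HEC, the other cellulose ether, XlnR was at 19.1, 26.4 and 26.23 FPKM at 4 h, at 17.61, 19.82 and 21.15 FPKM at 12 h, at 19.47, 22.74 and 27.39 FPKM at 24 h and at 25.86, 19.67 and 20.09 FPKM at 48 h. The 4 times on HEC overlapped throughout, within 17.61 to 27.39 FPKM.

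**Figure D1:**
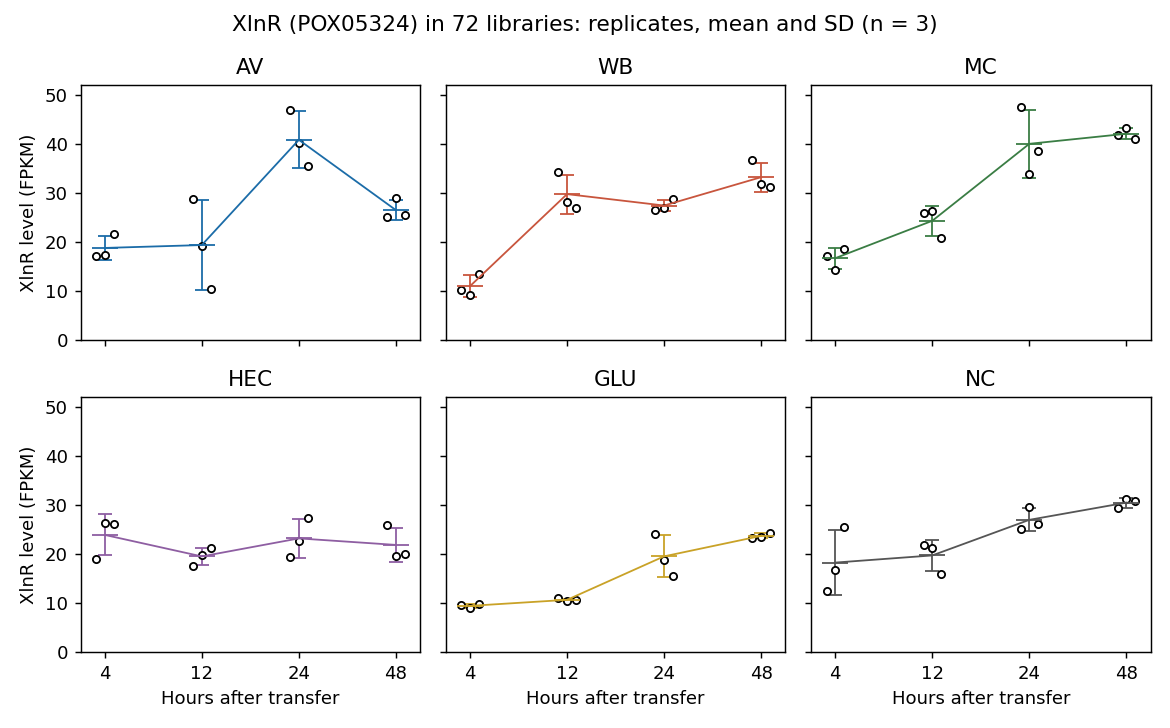
XlnR level in FPKM (linear axis from 0) against hours after transfer, 1 panel for each medium. Open circles are the 3 replicates, horizontal dashes their mean and bars the SD; the highest library is MC at 24 h replicate 1 (47.6 FPKM) and the lowest GLU at 4 h replicate 2 (9.0 FPKM).

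Ordered by condition mean, XlnR was highest in MC at 48 h (42.05 ± 1.13 FPKM, SD, n = 3), AV at 24 h (40.81 ± 5.8) and MC at 24 h (mean of 47.6, 33.85 and 38.56, SD 6.99), whose libraries overlapped. WB at 48 h followed (33.2 ± 2.98), then NC at 48 h (30.49 ± 0.998), WB at 12 h (29.75 ± 3.98), WB at 24 h (27.42 ± 1.14), NC at 24 h (26.98 ± 2.35) and AV at 48 h (26.49 ± 2.1). The middle of the order held MC at 12 h (24.31 ± 3.11), HEC at 4 h (23.91 ± 4.17), GLU at 48 h (23.71 ± 0.51), HEC at 24 h (23.2 ± 3.98) and HEC at 48 h (21.87 ± 3.46). These were neighbours with overlapping libraries, as were NC at 12 h (19.73 ± 3.23), GLU at 24 h (19.54 ± 4.3), HEC at 12 h (19.53 ± 1.79), AV at 12 h (19.37 ± 9.15), AV at 4 h (18.78 ± 2.53), NC at 4 h (18.27 ± 6.68) and MC at 4 h (16.69 ± 2.15). The lowest means were those of WB at 4 h (11.0 ± 2.22), GLU at 12 h (10.68 ± 0.255) and GLU at 4 h (9.45 ± 0.406). Along this order of 24 conditions, neighbouring libraries failed to overlap only at 2 steps, between MC at 4 h and WB at 4 h and between GLU at 12 h and GLU at 4 h. The order depends on scaling. With libraries rescaled by the median of ratios, the highest means were 45.62 FPKM in MC at 48 h and 42.29 FPKM in MC at 24 h. Below these came AV at 24 h (32.91 FPKM), HEC at 4 h (31.61 FPKM) and WB at 48 h (28.94 FPKM).

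Against NC, the study's control, XlnR fell on glucose and rose on methylcellulose when the 4 times were combined. The difference in log2(FPKM + 1), averaged over the times, was -0.61 for GLU and 0.30 for MC, and it was 0.09 for AV, 0.02 for WB and -0.07 for HEC. An exact two-sided permutation test that exchanged libraries within a time gave p = 1.25e-05 for GLU, the smallest value its 160000 arrangements can give, and p = 0.0096 for MC (adjusted over the 5 media, 6.25e-05 and 0.024). The adjusted exact permutation p was 0.702 for AV, 0.896 for WB and 0.702 for HEC. The MC call was lost when replicate 1 (difference 0.20, adjusted p = 0.413) or replicate 2 (0.36, adjusted p = 0.112) was left out at every time.

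At single times, XlnR met the study's criteria for a differentially expressed gene, or DEG (a size of 1 or more on the log2 scale together with p up to 0.05 before adjustment), in 0 of the 20 comparisons with NC by limma on log2(FPKM + 1). Of all tested genes, 15.5% did over the 20 comparisons pooled (4.09% to 33.6% in single ones; 5.28% upward and 10.2% downward). The study, which used DESeq, found XlnR different from NC only in MC at 24 h. By limma here XlnR was at 0.54 there, below the fold threshold. At an unadjusted p of at most 0.05 alone XlnR was past the threshold in 11 of the 20. With Benjamini-Hochberg adjustment over all tested genes and no fold threshold, it was called in 8 of the 20, 4 in each direction, and 53.0% of all tested genes were called over the same comparisons (34.2% to 76.3% in single ones; 16.4% upward and 36.6% downward). "Rose" and "fell" refer to this adjusted call for XlnR from here on. The share of XlnR, 8 of 20, is not above that background. The share of all tested genes at the unadjusted rule is not given here. It cannot be lower than the adjusted 53.0%, so the 11 of 20 is not read as a result. Because the samples are whole mycelium, a lower value cannot be told apart from fewer cells that express the gene.

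The 4 falls were GLU at 4 h, GLU at 12 h, HEC at 48 h and GLU at 48 h. In GLU the mean was 0.517 times that of NC at 4 h (log2 fold change -0.83, SE 0.24, adjusted p = 0.0204 by limma, 60.8% of genes called), 0.541 times at 12 h (-0.82, SE 0.12, adjusted p = 0.000742, 70.7% called) and 0.778 times at 48 h (-0.35, SE 0.06, adjusted p = 0.00171, 61.5% called). The sign was negative at 24 h as well, without a call (-0.46, SE 0.18, adjusted p = 0.077), although the libraries of GLU and NC did not overlap there. Glucose was thus the only medium in which the estimate was below 0 at every time. In HEC at 48 h the mean was 0.717 times that of NC (-0.47, SE 0.12, adjusted p = 0.0136, 50.7% called).

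The 4 rises were WB at 12 h, AV at 24 h, MC at 24 h and MC at 48 h. The ratio of means was 1.51 in WB at 12 h (log2 fold change 0.57, SE 0.15, adjusted p = 0.0109 by limma, 57.2% of genes called) and 1.51 in AV at 24 h (0.57, SE 0.12, adjusted p = 0.00545, 46.7% called). It was 1.48 in MC at 24 h (0.54, SE 0.13, adjusted p = 0.00506, 76.3% called) and 1.38 in MC at 48 h (0.45, SE 0.07, adjusted p = 0.0013, 67.8% called). No carbon source raised XlnR at 4 h with all libraries in the test. The NC libraries are shared by the 5 comparisons of a time, so these are not independent of each other.

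All tested genes as a set were shifted in most of these comparisons, and the XlnR values are to be read against that shift. The median log2 fold change of all tested genes differed from 0 by more than 0.1 in 17 of the 20 comparisons with NC and ran from -0.42 in MC at 24 h to 0.10 in GLU at 48 h. Relative to that median, XlnR stood at 0.96 in MC at 24 h, 0.86 in MC at 48 h, 0.64 in AV at 24 h and 0.64 in WB at 12 h, and at -0.70, -0.51, -0.29 and -0.45 in GLU at 4, 12, 24 and 48 h. In HEC at 4 h and MC at 12 h, which were not called, it stood at 0.74 and 0.63. In HEC at 48 h it stood at -0.25, and after rescaling the libraries by the median of ratios that fall was lost (-0.27, adjusted p = 0.0829). The same rescaling added rises in MC at 12 h (0.64, adjusted p = 0.00814) and WB at 24 h (0.24, adjusted p = 0.0184), and the difference averaged over the times became 0.29 for AV (adjusted exact permutation p = 0.0283) and 0.64 for MC (0.00025), while that of HEC turned to 0.18 without a call. In HEC at 4 h the rescaled value was 0.79, also without a call (adjusted p = 0.066 by limma).

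Some single calls against NC changed when 1 library was left out. The fall in GLU at 4 h was lost without GLU replicate 1 (adjusted p = 0.0574), 2 (0.0662) or 3 (0.0545) or NC replicate 2 (0.052), with log2 fold changes from -0.80 to -0.86, and without NC replicate 1 it became -1.06 and met the DEG thresholds. The fall in HEC at 48 h was lost without HEC replicate 3 (-0.42, adjusted p = 0.0503). Calls appeared for WB at 4 h without NC replicate 1 (-0.87, 0.0195), for HEC at 4 h without NC replicate 3 (0.67, 0.0414), for GLU at 24 h without GLU replicate 1 (-0.62, 0.0194) and for AV at 48 h without AV replicate 2 (-0.26, 0.0337). The NC libraries of 4 h, at 12.45, 16.8 and 25.57 FPKM, were the second most dispersed of the 24 conditions (coefficient of variation, 36.6%). Without the doubtfully labelled NC replicate 3 at 24 h, the rises in AV (0.55, adjusted p = 0.0199) and MC (0.52, 0.0169) at 24 h kept their calls, and no call at 24 h was gained.

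**Figure D2:**
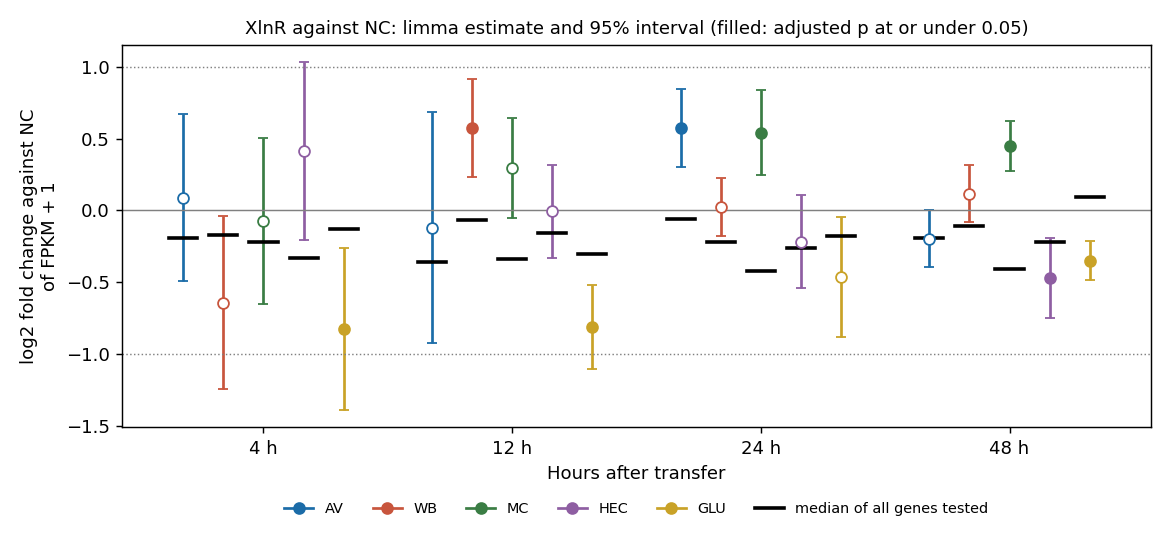
Log2 fold change of XlnR against NC on the FPKM + 1 scale for each medium and time, with the 95% interval from limma (3 libraries against 3). Filled points have an adjusted p of at most 0.05, black dashes are the median of all tested genes and dotted lines mark the DEG threshold of 1 in either direction, which no point reaches.

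Over time, XlnR rose in AV, WB, MC, GLU and NC and in none of the comparisons on HEC. Of the 36 pairs of times within a medium it rose in 19 and fell in 1. Over the same pairs pooled, 57.4% of all tested genes were called, 37.9% upward and 19.5% downward (23.5% to 85.7% in single pairs). XlnR was a DEG in 9 pairs, each of them a rise, and 21.6% of all tested genes were (14.9% upward). On HEC, the 6 estimates ran from -0.27 to 0.23 and none was called by limma at the adjusted threshold, nor at an unadjusted p of at most 0.05.

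The largest rise from 4 h was on WB. There the log2 fold change was 1.37 at 12 h (SE 0.16, adjusted p = 0.000225 by limma, 65.8% of genes called), 1.26 at 24 h (SE 0.14, adjusted p = 6.448e-05, 77.0% called) and 1.52 at 48 h (SE 0.15, adjusted p = 2.367e-05, 80.4% called), a ratio of means of 3.02 at 48 h. On MC it was 1.21 at 24 h (SE 0.14, adjusted p = 0.000127, 62.2% called) and 1.29 at 48 h (SE 0.12, adjusted p = 1.304e-05, 66.1% called). On GLU it was 1.24 at 48 h (SE 0.06, adjusted p = 4.89e-07, 85.7% called). On AV it was 1.08 at 24 h (SE 0.13, adjusted p = 0.000114, 79.5% called), and XlnR then fell from 24 to 48 h by 0.60 (SE 0.11, adjusted p = 0.00269, 65.3% called), the only fall among the 36 pairs.

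The whole set of tested genes shifted over time as well. The median of all tested genes lay beyond 0.1 in size in 28 of the 36 pairs and reached 0.58 between 12 and 24 h on AV. Relative to that median, the changes from 4 h were 1.19, 0.95 and 1.12 on WB at 12, 24 and 48 h, 1.06 and 1.17 on MC at 24 and 48 h, 0.76 on GLU at 48 h and 0.54 on AV at 24 h. With rescaled libraries 4 of the 9 DEG calls were left, WB at 12 and 48 h and MC at 24 and 48 h, each against 4 h. On HEC the rescaled changes from 4 h were -0.62 at 12 h, -0.49 at 24 h and -0.58 at 48 h and passed the adjusted threshold (adjusted p = 0.0175, 0.0405 and 0.0162). Their sign was that of the unscaled changes, -0.27, -0.04 and -0.12, so scaling decided the calls on HEC.

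Several of the smaller time calls changed when a library was left out. On NC, the rise from 4 to 48 h (0.76, adjusted p = 0.024) was lost without 4 h replicate 2 (0.74, adjusted p = 0.0699) or without any of the 48 h replicates (0.75 to 0.79, 0.0567 to 0.0683), and that from 12 to 24 h (0.44, adjusted p = 0.0282) without 12 h replicate 3 (0.31, 0.0641), 24 h replicate 2 (0.37, 0.0909) or 24 h replicate 3 (0.46, 0.0615). On MC, the rise from 4 to 12 h (0.52, adjusted p = 0.0207) was lost without replicate 1 or 2 of either time (0.42 to 0.54, 0.0552 to 0.0729). On AV, the change from 12 to 24 h (1.14, adjusted p = 0.02) was lost without 12 h replicate 2 (1.18, 0.0522), 24 h replicate 1 (1.03, 0.0672) or 24 h replicate 2 (1.14, 0.0557). Without the 12 h library that resembled HEC it was 1.46 (adjusted p = 0.00121), and a rise from 12 to 48 h of 0.86 was then called (adjusted p = 0.015). The rise from 24 to 48 h on WB (0.26, adjusted p = 0.0235) was lost without 24 h replicate 1 (0.24, 0.0753) or 2 (0.25, 0.0622). As DEGs, AV from 4 to 24 h was lost without 24 h replicate 1 (0.98) and AV from 12 to 24 h without 12 h replicate 3 (0.77), and GLU from 4 to 24 h without 24 h replicate 3 (1.10) and NC from 4 to 48 h without 4 h replicate 3 (1.02) were gained. Calls appeared for HEC from 4 to 12 h without 4 h replicate 1 (-0.42, 0.025), GLU from 24 to 48 h without 24 h replicate 1 (0.44, 0.0352) and NC from 4 to 24 h without 4 h replicate 3 (0.85, 0.00129).

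The time course differed between media. An F test of the 15 contrasts in which a medium's difference from NC at 12, 24 or 48 h is set against that at 4 h gave F = 6.19 for XlnR (adjusted p = 4.178e-07 by limma, all 72 libraries). The same test called 98.8% of all tested genes, so XlnR does not stand out by it. Of the single contrasts, 4 passed the adjusted threshold, WB at 12, 24 and 48 h upward and HEC at 48 h downward, and they share the NC libraries of 4 h. Without NC replicate 1 of 4 h, AV at 24 h (0.72, adjusted p = 0.0292), MC at 24 h (0.85, 0.0163) and 48 h (0.76, 0.0271) and GLU at 48 h (0.71, 0.0269) were called instead of HEC at 48 h. With rescaled libraries the same 4 contrasts passed, and MC at 24 h (0.80, adjusted p = 0.0076) and 48 h (0.70, 0.0173) and HEC at 12 h (-0.64, 0.0477) and 24 h (-0.74, 0.0203) passed as well.

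Among the 5 carbon sources, differences in XlnR were called in 23 of 40 pairs at the same time, and 50.7% of all tested genes were called over these pairs pooled (0.652% to 79.7% in single ones). XlnR was a DEG in 6 pairs, beside 16.4% of all tested genes (1.85% to 33.1%). Of these 6, 5 had glucose as the lower member. HEC against GLU at 4 h had a log2 fold change of 1.24 (SE 0.14, adjusted p = 0.00024 by limma, 62.9% of genes called), WB against GLU at 12 h of 1.39 (SE 0.11, adjusted p = 9.509e-06, 66.0%) and MC against GLU at 12 h of 1.11 (SE 0.11, adjusted p = 5.686e-05, 63.1%). AV and MC were above GLU at 24 h by 1.04 (SE 0.18, adjusted p = 0.00574) and 1.00 (SE 0.19, adjusted p = 0.00478, 53.4%). The DEG pair without glucose was WB against HEC at 4 h, at -1.05 (SE 0.19, adjusted p = 0.00146, 64.1%). Single libraries took some of these below the fold threshold of 1, namely WB replicate 2 or HEC replicate 2 or 3 for WB against HEC (-0.95 to -0.98), AV replicate 1 or GLU replicate 3 for AV against GLU at 24 h (0.93 and 0.90) and MC replicate 1 or GLU replicate 2 or 3 for MC against GLU at 24 h (0.86 to 0.99).

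The order of the media changed with time. At 4 h WB was below AV (AV against WB, 0.73, SE 0.17, adjusted p = 0.00545 by limma, 68.1% of genes called), MC and HEC, and WB and GLU did not differ detectably (0.18, SE 0.15, adjusted p = 0.317). At 12 h WB was above HEC (0.58, SE 0.12, adjusted p = 0.00501, 52.2% called) and GLU. At 24 h AV and MC were both above WB, HEC and GLU, and the difference between AV and MC was 0.03 (SE 0.14, adjusted p = 0.841). The median of all tested genes was 0.35 in that pair, and relative to it XlnR stood at -0.32. With rescaled libraries the difference was -0.34 (adjusted p = 0.0672 by limma), so the near equality of AV and MC depends on scaling. At 48 h MC was above AV (AV against MC, -0.65, SE 0.09, adjusted p = 0.000615, 51.7%), WB (WB against MC, -0.34, SE 0.09, adjusted p = 0.0103, 65.7%), HEC (0.92, SE 0.12, adjusted p = 0.000493, 40.5%) and GLU (0.80, SE 0.06, adjusted p = 8.296e-06, 79.7%). Over the 40 pairs, the median of all tested genes differed from 0 by more than 0.1 in 25. It ran from -0.46 to 0.35. With rescaled libraries 27 of the 40 pairs were called. AV against GLU at 48 h went from an uncalled 0.15 to a called 0.43 (adjusted p = 0.00203 by limma).

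The 2 cellulose ethers, which differ in the group attached to the cellulose chain, differed in XlnR at 24 and 48 h and missed the threshold before. MC against HEC was -0.49 at 4 h (SE 0.16, adjusted p = 0.0701 by limma), 0.30 at 12 h (SE 0.13, adjusted p = 0.119), 0.76 at 24 h (SE 0.16, adjusted p = 0.00881, 33.7% of genes called) and 0.92 at 48 h. The 95% interval, not adjusted for the number of genes, was -0.87 to -0.11 at 4 h and 0.0046 to 0.59 at 12 h, so the early differences are not shown to be absent. The 4 h difference was called without HEC replicate 1 (-0.63, adjusted p = 0.0292), and with rescaled libraries both early differences were (-0.65, adjusted p = 0.028, and 0.49, adjusted p = 0.0492). Elsewhere, the call of WB against MC at 4 h (-0.57, adjusted p = 0.0171) was lost without WB replicate 1 or 2 or MC replicate 1 or 3 (-0.46 to -0.54, 0.0551 to 0.0678). That of AV against WB at 48 h (-0.31, adjusted p = 0.0204) was lost without AV replicate 1 or 3 or WB replicate 1 (-0.24 to -0.29, 0.0545 to 0.0645). Leaving out the HEC-like AV replicate at 12 h turned AV against WB from -0.69 (adjusted p = 0.122) to a called -1.02 (0.00806), and leaving out AV replicate 3 turned AV against GLU at 12 h from 0.70 (0.11) to a called 1.06 (0.00346), both past the fold threshold of 1. So was MC against HEC at 48 h without HEC replicate 1 (1.04). Calls also appeared for WB against HEC at 24 h without HEC replicate 3 (0.37, 0.0378), WB against GLU at 24 h without GLU replicate 1 (0.65, 0.00996), AV against HEC at 48 h without HEC replicate 1 (0.39, 0.0303) and HEC against GLU at 48 h without the same library (-0.24, 0.014).

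The endo-xylanase genes, which encode the enzymes that cut the xylan backbone, moved far more than XlnR did. The gene lists from here on come from the study, which drew them up on these samples, the enzyme lists mostly from the annotation of genes it had found to be DEGs, so a list's counts and direction are not independent evidence. Over the 20 comparisons with NC, the 10 endo-xylanase genes met the DEG thresholds upward 110 times and downward 10 times of 200 (5.28% and 10.2% of all tested genes over the same comparisons), with the NC libraries of a time shared. On WB, all 10 were DEGs upward at 4 h (11.9% of all tested genes were), at 12 h (6.93%) and at 48 h (4.50%), and 9 were at 24 h (5.80%), with median log2 fold changes of 5.07, 7.47, 2.94 and 1.71 beside all-gene medians of -0.17, -0.07, -0.11 and -0.22. On AV, 8, 8, 7 and 8 of the 10 were DEGs upward at 4, 12, 24 and 48 h (4.24%, 3.17%, 4.12% and 5.95% of all genes). On MC, 3, 4, 4 and 5 were (4.96%, 4.47%, 5.95% and 4.32%), and on HEC 7, 3, 2 and 3 (2.75%, 2.53%, 3.45% and 4.96%). On GLU, 2 of the 10 were DEGs upward and 4 downward at 4 h (7.78% and 17.5% of all genes), 2 upward and 3 downward at 12 h, 2 upward and 2 downward at 24 h and 3 upward and 0 downward at 48 h (7.52%, 4.93% and 5.27% of all genes upward). Of all tested genes, between 9.1% (48 h) and 18.4% (12 h) were DEGs downward on GLU at these later times.

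In WB at 4 h, the xylanase genes were high while XlnR was near its lowest. There XlnR was at 10.31, 9.21 and 13.49 FPKM, against 12.45, 16.8 and 25.57 FPKM in NC (log2 fold change -0.64, SE 0.26, adjusted p = 0.0621 by limma), so it was not above the starved control in its mean. POX03430, an endo-xylanase gene, was at a mean of 13340 ± 457 FPKM in the same WB libraries and 24.98 ± 7.03 FPKM in NC (SD, n = 3), a log2 fold change of 9.04. Xyn10A (POX00063) rose by 6.57 to 520.8 ± 88.8 FPKM, Xyn11A (POX06783) by 3.61 to 219.3 ± 38.9 FPKM and Xyn11B (POX08484) by 1.88 to 143.22, 136.7 and 114.67 FPKM in the 3 libraries.

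In AV at 24 h both were high. XlnR was at 40.81 FPKM there, Xyn10A was at 1538 ± 139 FPKM against 0.987 ± 0.214 FPKM in NC (log2 fold change 9.60) and Xyn11B at 3649 ± 355 FPKM against 64.51 ± 5.93 FPKM (5.80), the highest condition means of both genes. In NC at 48 h, where XlnR was at 30.49 FPKM, Xyn10A was at 1.9 ± 0.65 FPKM and Xyn11A at 10.71 ± 2.95 FPKM. Starved mycelium of 48 h thus held more XlnR transcript than WB at 4 h and far less of these xylanase transcripts. Xyn11A was the only endo-xylanase gene that was a DEG upward in all 20 comparisons, GLU included, with log2 fold changes from 1.22 to 7.79.

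The profile of each gene was then set against that of XlnR by Pearson's r over the 24 condition means of log2(FPKM + 1). This is a description across conditions that share time, medium and library composition, and it carries no test. The study built its groups of co-expressed genes from these same libraries and put XlnR into 1 group with ClrB, ClrB-2, ClrA, Xyn10A, Xyn11B and many cellulase genes, so a high r of these genes is not independent evidence. Over the other 8897 genes the median r was 0.20, with 0.689 at the 95th percentile. The endo-xylanase genes had a median r of 0.271, with 7 of 10 above 0, near the median of all genes. Xyn11B came closest (0.703), followed by POX06601 (0.515), Xyn11A (0.434), POX05916 (0.42) and Xyn10A (0.39). POX04274 (0.151), POX03430 (0.0753), POX08990 (-0.0084) and POX02723 (-0.024) showed almost no likeness, and POX01417, highest in WB at 4 h (445.1 FPKM), ran opposite (-0.546).

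Genes for other enzymes of xylan breakdown also had r on both sides of 0. It ran from -0.199 to 0.807 for β-xylosidases and from -0.319 to 0.671 for enzymes that remove side chains. The 7 measured β-xylosidase genes, which release xylose from short xylan fragments, had a median r of 0.219 (0.0464 with rescaled libraries), and 1 of the 8 listed genes, POX08984, was below the mean of 1 FPKM. Genes were assigned to this list and to the next by their annotation in the study, whose text counts 7 of the genes listed here for side chains among its 8 β-xylosidase genes. With those 8 as the list, an alternative added after seeing the data, the median r was 0.224. POX01646 stood out at 0.807 and was highest in MC at 48 h (129.7 FPKM), and POX08661 (0.427), POX04995 (0.249) and POX00007 (0.219) followed. POX01646 belongs to the study's co-expression group with XlnR, which was built on these libraries, so its high r is not independent evidence. The 19 genes for enzymes that remove side chains from xylan had a median r of 0.228, led by the putative α-L-arabinofuranosidase gene POX09154 (0.671), the acetyl xylan esterase gene POX08861 (0.663), POX01921 (0.586), annotated as a putative α-L-arabinofuranosidase gene and named among the β-xylosidase genes in the study's text, and the acetyl xylan esterase gene POX01218 (0.576). In the comparisons with NC, the β-xylosidase genes were DEGs upward 36 times and downward 12 times of 140, and the side-chain genes 86 and 62 times of 380, beside 5.28% and 10.2% of all tested genes. With the 8 genes of the study's text, the β-xylosidase count was 39 upward and 11 downward of 160.

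The 17 cellulase genes all had a positive r, with a median of 0.585. With rescaled libraries 15 of the 17 did (median 0.688). All of the 17 except Cel12A, Bgl1 and POX08882 belong to the study's co-expression group with XlnR, which was built on these libraries. Of the endo-xylanase genes only Xyn10A and Xyn11B belong to it. The difference between the list medians is therefore not independent evidence. The study counts more endoglucanase and β-glucosidase genes in the genome than are listed here. Among the 17, the β-glucosidase genes Bgl1 (POX06835, 0.742) and POX03062 (0.691), whose products release glucose from cellobiose, led. The cellobiohydrolase gene Cel6A (POX04786, 0.66) and the endoglucanase gene Cel5C (POX01896, 0.634) came behind them. The 17 genes were DEGs upward 188 times and downward 22 times of 340 (5.28% and 10.2% of all tested genes), and 13 of the 17 were DEGs upward in MC at 48 h (4.32% of all genes). The transporters of cellodextrins, short chains cut from cellulose, CdtC (POX06051) and CdtD (POX05915), had r of 0.547 and 0.507. CdtC belongs to the study's group with XlnR and CdtD to another of its groups. The 9 genes of spore formation and pigment, whose level climbed with time in most media, had a median r of 0.606. With deviations from the mean of each time in place of the condition means, that median was 0.281, beside 0.33 for the endo-xylanase genes and 0.59 for the cellulase genes. By that measure 9 of the 10 endo-xylanase genes were above 0. The median of all genes is not given for it or for rescaled libraries, so these list medians have no background beside them. The spore pigment genes AbrA (0.76) and ArpA (0.636) and the spore development genes TmpA (0.677) and FlbB (0.662) led the spore list by r over condition means. Their part in the r values of other genes was not tested.

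**Figure D3:**
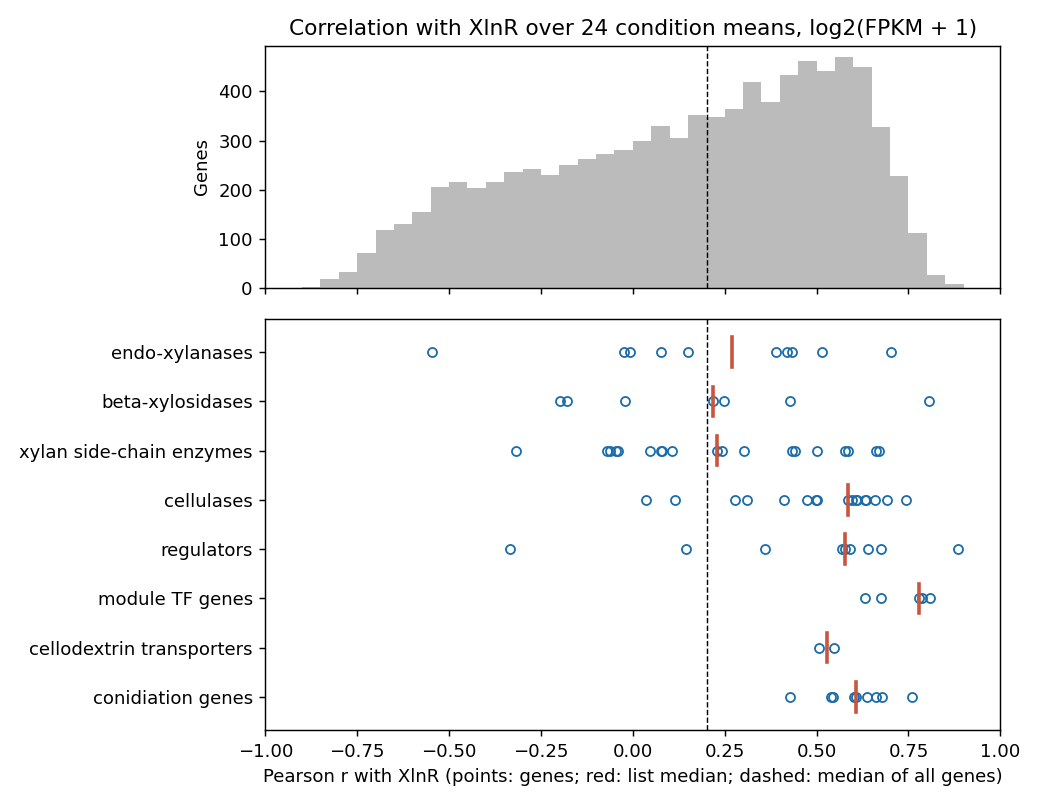
Pearson r with XlnR over 24 condition means of log2(FPKM + 1). The upper panel counts the 8897 other genes by r, and the lower panel shows list members as circles and list medians as red bars. The endo-xylanase median (0.271) lies near the dashed median of all genes (0.20) and the cellulase median (0.585) to its right. Most of the cellulase genes shown belong to the study's co-expression group with XlnR.

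ClrB (POX01960), the cellulase activator, was the gene most like XlnR of all 8897 (r = 0.886). It was at 159.0 ± 10.1 FPKM in MC at 48 h, where XlnR too was highest, and at 8.437 ± 0.526 FPKM in WB at 4 h, where XlnR was among the 3 lowest. Its range was wider than that of XlnR, 4.08 against 2.04 on the log2 scale. ClrB was above XlnR in 69 of 72 libraries, and the exceptions were the 3 libraries of WB at 4 h, where ClrB was at 8.53, 7.87 and 8.91 FPKM and its ratio to XlnR was 0.781 ± 0.105 (SD, n = 3). The ratio was 4.55 ± 0.299 in WB at 24 h and 1.19 ± 0.0741 in NC at 48 h, and over all libraries its median was 2.37.

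The 2 activators parted in some media at 24 h and at 48 h. In WB at 24 h, ClrB was at 124.6 ± 3.25 FPKM, against 52.57 ± 4.79 FPKM in NC. XlnR was at 27.42 ± 1.14 and 26.98 ± 2.35 FPKM in the same libraries. In GLU at 24 h both were below NC in their means (34.45 ± 9.95 FPKM for ClrB and 19.54 ± 4.3 FPKM for XlnR). Between 24 and 48 h in NC, ClrB went from 52.57 ± 4.79 to 36.33 ± 3.15 FPKM while XlnR went from 26.98 ± 2.35 to 30.49 ± 0.998 FPKM. Against NC at 48 h, ClrB was at a log2 fold change of 1.87 in WB and 2.1 in MC, where XlnR was at 0.12 and 0.45, and at 0.73 in GLU, where XlnR fell by 0.35. In AV at 12 h both genes spread in the same order over the replicates, at 64.17, 39.26 and 23.83 FPKM for ClrB and 28.66, 19.08 and 10.36 FPKM for XlnR, with a ratio of 2.2 ± 0.126. Over all 72 libraries, the deviations of ClrB from its condition means followed those of XlnR with r = 0.786, and the median of all genes for this measure was 0.221. All genes of a library share its composition and scaling.

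**Figure D4:**
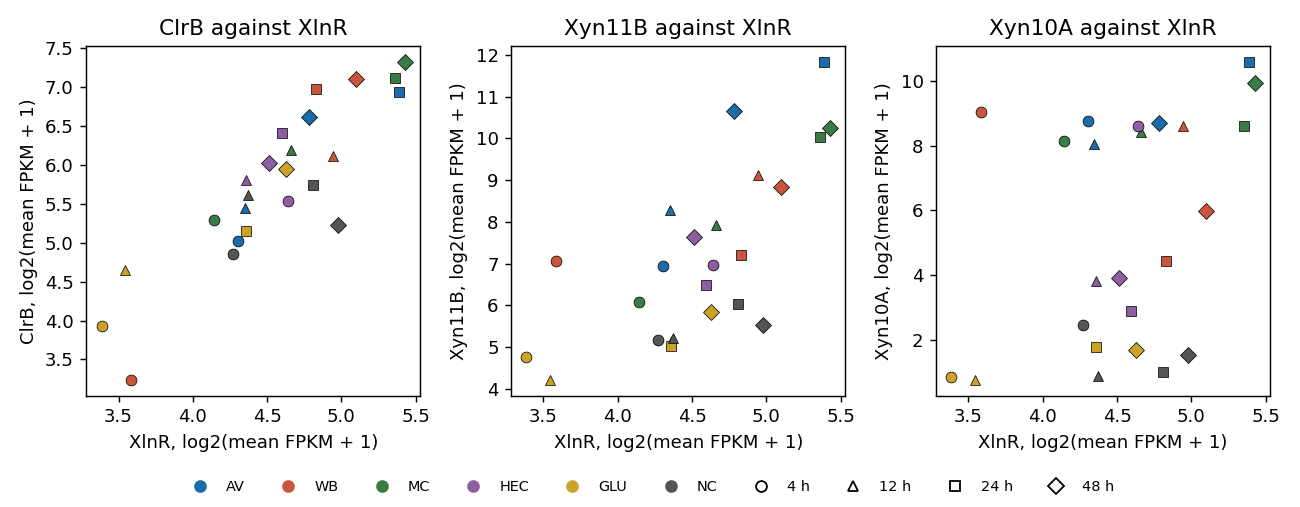
Log2 of the condition mean FPKM + 1 of ClrB, Xyn11B and Xyn10A (vertical axes) against that of XlnR (horizontal axes); each point is 1 of 24 conditions, its colour the medium and its shape the time. ClrB lies along a band, and Xyn10A reaches high levels in WB at 4 h at a low XlnR level and stays low in NC at 48 h at a higher XlnR level.

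The other regulators of plant polymer use ranged from a positive to a negative r. CxrA (POX01167) and CxrB (POX04420), regulators of cellulase and xylanase genes in this fungus, had r of 0.675 and 0.641, ClrB-2 (POX02071), a second ClrB-like gene, 0.592, CreA (POX07254) 0.578, PrtT (POX03888), the protease activator, 0.568, and ClrA (POX03837) 0.36. AmyR (POX03890), the amylase regulator, had 0.144 and MBF1 (POX08292), a coactivator, -0.335. Over the 9 regulators the median was 0.578, and in the comparisons with NC they were DEGs upward 39 times and downward 34 times of 180 (5.28% and 10.2% of all tested genes).

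In MC at 4 h ClrA and ClrB-2 rose and XlnR was not called. XlnR was at 0.913 times its NC mean (log2 fold change -0.07, SE 0.25, adjusted p = 0.83 by limma), while ClrA was at 90.37 ± 3.85 FPKM against 6.603 ± 0.667 FPKM (3.59, SE 0.12) and ClrB-2 at 21.08 ± 5.35 against 4.683 ± 1.53 FPKM (1.96, SE 0.24), and both were DEGs. In HEC at 4 h, where XlnR was not called either, ClrA was a DEG (29.4 ± 0.646 FPKM, adjusted p = 0.000206 by limma) and ClrB-2 was not (0.24, adjusted p = 0.422). CreA was the more abundant transcript in all 72 libraries, at 8.29 to 48.2 times the XlnR level. On GLU at 4 and 12 h, CreA was at 193.1 ± 4.6 and 174.4 ± 6.67 FPKM against 464.0 ± 29.9 and 555.6 ± 61.9 FPKM in NC, so that the repressor transcript and XlnR were both low in early glucose. The r of CreA without MC at 48 h was 0.54, and its rank correlation over the 24 conditions was 0.215.

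The study's group of co-expressed genes that holds XlnR has 5 further transcription factor genes, chosen on these libraries, with r of 0.633 to 0.808. They were POX07871 (0.808), POX01118 (0.787), POX01678 (0.778), POX04007 (0.674) and POX01474 (0.633). POX07871 was at a median of 1.54 times XlnR, and its deviations within conditions followed those of XlnR with r = 0.858. The 5 genes were DEGs upward 11 times and downward 7 times of 100 against NC (5.28% and 10.2% of all tested genes).

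After ClrB, the genes most like XlnR were POX04036 (r = 0.873), POX03773 (0.864), POX04037 (0.86), POX09616 (0.854), POX04038 (0.852), POX04570 (0.851), POX07432 (0.851), POX07387 (0.842) and POX03367 (0.84). Among them, POX04570 is annotated as a putative exopolygalacturonase of pectin breakdown, POX07387 as a member of the major facilitator superfamily of membrane transporters and POX03367 as an AAA-type ATPase with a Clp domain, and POX04036, POX04037 and POX04038 bear consecutive numbers. ClrB, POX07387 and POX03367 belong to the study's group and the other 7 do not. POX04036 was at 104.8 ± 15.4 FPKM in MC at 48 h and 6.06 ± 1.43 FPKM in GLU at 12 h. POX07432 was the most abundant of the 10, at a mean of 296 FPKM, and was highest in WB at 48 h (659.2 FPKM). POX04570, at a mean of 1.249 FPKM, was little above the filter of 1 FPKM. Its condition means ran from 0.0167 to 2.493 FPKM, so its r rests on low values. The least alike were POX01984 (r = -0.909), highest in WB at 4 h, POX01879 (-0.899), highest in GLU at 12 h (7412 FPKM), and POX04819 (-0.874), highest in GLU at 4 h (850.4 FPKM). With rescaled libraries their r was -0.757, -0.623 and -0.636, at ranks 8882, 8649 and 8700 of the 8897 genes, so none of them was then the least alike.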

How the data were processed

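Each library was a deposited table of FPKM values per gene, which the authors made with RSEM (1.2.12 per the labels, which also name Bowtie2 2.1.0, BWA 0.7.10-r789 and DESeq2). FPKM are not counts, so no count model was used, although the study's methods call DEGs with DESeq. Values were put on the log2(FPKM + 1) scale, genes with a mean under 1 FPKM were left out of tests, and pairs of conditions were compared on their 6 libraries with limma 3.58.1 (R 4.3.3), trended variance and Benjamini-Hochberg adjustment. The medium by time test used all 72 libraries. Exact permutation tests were run in Python 3.11.15 with numpy 2.4.6. The limma code was tested on simulated data. The replicates are stated to be biological. Named genes were XlnR in every library, all regulators, module genes, cellodextrin transporters and endo-xylanases, the 4 members of each other list with the highest r, and the 10 highest and 3 lowest r of all genes. The members and lists were chosen with earlier results of these data known. Gene identifiers were used as the files give them; no coordinates or sequences were used.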

Additional observations from a re-analysis of the deposited data

Results flagged for a closer look

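Within XlnR, 4 differences between a medium's effect at a later time and its effect at 4 h, each against NC, passed the adjusted threshold in limma on all 72 libraries. For WB the effect was higher than at 4 h by 1.22 at 12 h (SE 0.27, adjusted p = 0.00014), by 0.67 at 24 h (adjusted p = 0.029) and by 0.76 at 48 h (adjusted p = 0.0124), all on the log2 scale. For HEC at 48 h the difference was -0.88 (adjusted p = 0.0122). Of all tested genes, 59.4%, 65.6%, 68.8% and 25.7% passed in the same contrasts. Of the 4, the WB contrast at 12 h alone passed without any single library (0.96 to 1.45). The WB contrast at 24 h was lost without NC replicate 3 at 4 h (0.41, adjusted p = 0.184), WB replicate 1 (0.63, 0.0551) or 2 (0.56, 0.0883) at 4 h, WB replicate 3 at 24 h (0.64, 0.0543) or NC replicate 1 at 24 h (0.62, 0.0595). The WB contrast at 48 h was lost without NC replicate 3 at 4 h (0.50, 0.1) and that of HEC without NC replicate 1 at 4 h (-0.65, 0.0847). With rescaled libraries all 4 passed (1.12, 0.71, 0.67 and -1.06), and MC at 24 and 48 h and HEC at 12 and 24 h passed as well. In the unscaled test, HEC at 24 h passed without HEC replicate 1 (-0.78, 0.0433) or NC replicate 3 (-0.89, 0.0116) of 4 h or AV replicate 3 of 12 h (-0.63, 0.042). MC at 24 h passed without NC replicate 1 of 4 h (0.85, 0.0163), MC replicate 2 of 24 h (0.73, 0.0478) or AV replicate 1 or 3 of 12 h (0.62, 0.0423 and 0.034). AV at 24 h, MC at 48 h and GLU at 48 h passed without NC replicate 1 of 4 h.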

How the results depend on the processing

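Of the 96 single XlnR comparisons, all kept their direction and call with a pseudocount of 0.1 and without the filter on low values. With rescaled libraries 76 kept their call, 12 gained and 8 lost it; with 1 fit of all 72 libraries 83 kept it, 8 gained and 5 lost it. Rescaling moved the DEG calls over time from 9 to 4 and the AV difference from NC over 4 times from 0.09 to a called 0.29 (adjusted p = 0.0283). Leaving out 1 library gave 7 to 9 calls against NC, 22 to 25 between carbon sources and 19 to 21 over time, and 0 to 1, 4 to 7 and 8 to 10 DEGs. Leaving out a replicate number moved the difference over 4 times to -0.06 to 0.21 for AV, -0.07 to 0.09 for WB, 0.20 to 0.36 for MC, -0.09 to -0.05 for HEC and -0.71 to -0.56 for GLU. F for medium by time ran from 5.41 to 8.44 without single libraries. Of the 10 genes most like XlnR, 5 stayed among the first 10 with FPKM without log, 4 by rank correlation, 8 over individual libraries, 4 with rescaled libraries, 4 without MC at 48 h and, in an alternative chosen after seeing the data, 2 with deviations from the mean of each time. ClrB ranked 1, 5, 1, 1, 3 and 8 in these. The replicate block kept 93 of 96 calls, with 9 against NC, 24 between carbon sources and 19 over time, and F = 6.03; exact sign flips gave p = 0.000488 for GLU and 0.0151 for MC. Same-numbered libraries were not paired by the data: their deviations correlated above 0.1 in every pair in 1 of 20 comparisons (mean r, 0.0621). Read depth is unknown, so counting error for XlnR could not be set apart from replicate spread.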
